A study of Mus musculus with 4 samples.

Results

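Axon guidance genes encode the secreted and membrane-bound cues, and the receptors for them, that were first studied in growing axons and that also steer the movement and adhesion of other cells. The genes described here are the semaphorins with their plexin and neuropilin receptors, the ephrins with the Eph receptor tyrosine kinases, the Slits with the Robo receptors, and the netrins with the Unc5 receptors. The rule that chose them used their symbols and not their values, and it was set with earlier results of these data known. Of 22911 gene symbols that array probes carried through their RefSeq accession, 68 belonged to these families, and 111 of 56605 probes measured them. One of the 68, Plxna4os1, is a noncoding RNA antisense to the plexin gene Plxna4.

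The RNA came from ID8G cells, the mouse ovarian cancer line ID8 made to express GFP, and from GO2 cells, a line obtained from them. GFP-positive, CD45- cells were sorted from omental tumors that formed after intraperitoneal injection of ID8G cells, were injected again, and were sorted from the new omental tumors to give GO2 cells. Both lines carry GFP and were grown in DMEM with 4% FBS, insulin, transferrin and selenite. The comparison therefore concerns cultured cells, and GO2 is a single selected line. Each line was measured on 2 Agilent single-color arrays of 1 slide. Nothing in the labels says that the arrays of a line came from separate cultures, so the p values measure the spread between these samples, which may be technical.

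Slits and semaphorins are both known as repellent cues that act through receptors at the cell surface. Slits are secreted proteins that bind receptors of the Robo family, though not every member need bind them. Class 3 semaphorins are secreted and act through neuropilins together with plexins. The semaphorins of classes 4 to 7 are held at the membrane, and most of them bind plexins directly. Ephrins are anchored in the membrane too, so that they and their Eph receptors signal where cells touch. Netrins can attract or repel, with Unc5 receptors taking part in repulsion. In tumors, genes of these families have been studied for cell migration, vessel growth and metastasis.

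Throughout, a level is the log2 intensity of a probe minus the 75th percentile of its array, so a difference of 1 is 2-fold. Levels depend on the probe and are compared between arrays only, never between probes. A probe was tested if both arrays of 1 line or of both lines read it well above background, and it was called with a Benjamini-Hochberg adjusted p (limma) under 0.05 and a difference of at least 1. A gene was called where at least 1 of its probes was. Where neither array of a line was well above background, only a lower bound of the fold is given. For it, levels of that line under the lowest signal well above background on each array were raised to that signal. Such a bound holds for these levels only. Normexp background correction gave differences smaller than the bound for Slit3, Epha1, Ephb2, Robo4, Sema6a, Unc5c and the dimmer Sema5a probe, though not for Ntn5. The p beside such a bound is that of the fitted difference of measured levels, not of the bound. Less RNA per cell and fewer cells with the RNA cannot be told apart in such bulk samples.

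In GO2 cells, 9 axon guidance genes were called higher and 8 lower, and 36 tested genes had no call. Slit2, Slit3, Sema3b, Sema3d, Sema3e, Efna5, Epha1, Ephb2 and Plxna2 were the higher genes. Ephb2 was called on its dimmer probe only, and its brighter probe differed by -0.02. The lower ones were Robo3, Robo4, Sema4a, Sema5a, Sema6a, Sema7a, Ntn5 and Unc5c. The higher calls thus held 2 of the 3 Slits and 3 of the 6 tested class 3 semaphorins, and the lower calls held 2 of the 4 Robo receptors and 4 of the 10 tested semaphorins of classes 4 to 7. There were 0 genes with calls in opposite directions.

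Of the 68 genes, 53 had a tested probe, 74 probes in all, and 15 had none. Among the tested probes, 11 of 74 (14.9%) were called higher, where 4.50% of all 28368 tested probes were, and 9 of 74 (12.2%) were called lower, where 3.34% of all were. By gene, 9 of 53 (17.0%) were higher and 8 of 53 (15.1%) lower, against 6.44% and 4.33% of the 13215 tested gene symbols. The genes of each family were few, and no test of these shares was made. Both GO2 arrays lay above both ID8G arrays on 37 of the 74 probes and below them on 29, and the lines overlapped on 8. Over all tested probes the GO2 arrays lay above on 33.9% and below on 39.7%. The median difference was 0.11 for these 74 probes and -0.02 for all probes.

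**Figure D1:**
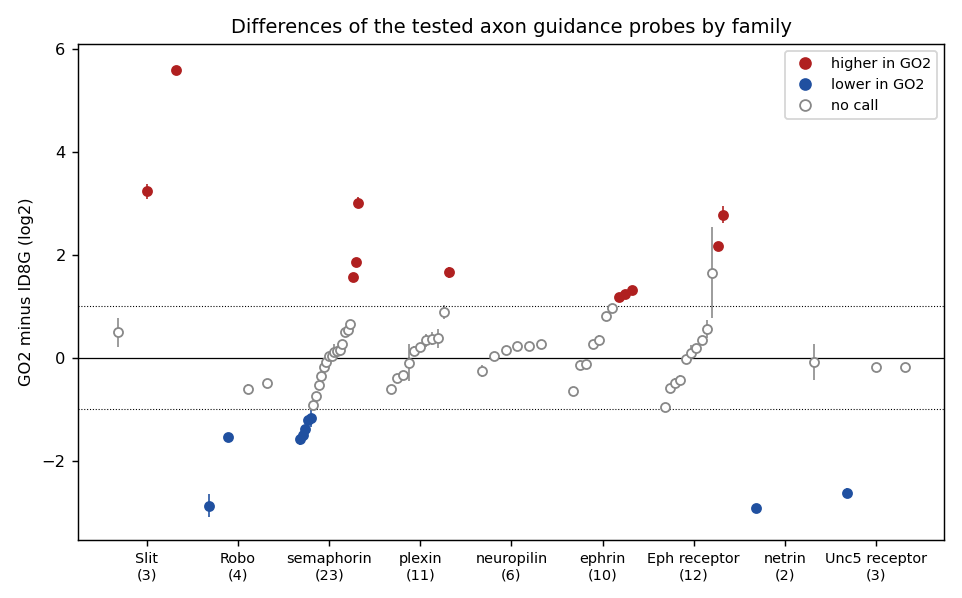
Difference between GO2 and ID8G cells (vertical axis, log2, with its limma standard error) for each of the 74 tested axon guidance probes, grouped by family with the number of tested probes below each name. Filled points passed the test, dotted lines mark 2-fold in either direction, and the points for lines that were not well above background show the fitted difference and not the bound. All 3 Slit probes lie above 0 and all 4 Robo probes below it.

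Slit3 had the largest difference of these genes. Its probe was at -5.69 and -5.55 on the ID8G arrays and at -0.06 and 0.00 on the GO2 arrays. Signal was well above background on both GO2 arrays and on neither ID8G array, so Slit3 was at least 12.6-fold higher in GO2 cells (3.65 on the log2 scale, limma adjusted p = 0.000182). For Slit2, the levels were -3.63 and -3.24 in ID8G cells and -0.22 and -0.18 in GO2 cells. The difference was 3.24 ± 0.14 (standard error, n = 2 arrays per line, limma adjusted p = 0.000641), or 9.44-fold, with 1 of the 2 ID8G arrays well above background. The other 2 Slit2 probes stayed near background on every array and give no second reading of this gene. Slit1 was at -2.90 and -2.88 in ID8G cells and at -1.99 and -2.81 in GO2 cells, and it was not called (difference 0.49 ± 0.29, limma adjusted p = 0.252). Its GO2 arrays both lay above the ID8G arrays but far from each other.

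The 4 Robo genes each had 1 tested probe, and all 4 were below ID8G on both GO2 arrays, as were 39.7% of all tested probes. Binding of Slits to any Robo protein was not measured. Robo4, which is best known from endothelial cells, was at -1.53 and -1.28 in ID8G cells and at -3.99 and -4.57 in GO2 cells. Neither GO2 array was well above background, which makes Robo4 at least 5.29-fold lower (limma adjusted p = 0.00252). Robo3, known for its part in guiding axons across the midline, was measured in both lines. It was at -0.73 and -0.68 in ID8G cells and at -2.30 and -2.19 in GO2 cells, 2.91-fold lower (difference -1.54 ± 0.06, limma adjusted p = 0.00055).

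Robo1 and Robo2, the receptors most widely paired with Slit2, differed by less than 2-fold and were not called. Robo1 was at 1.62 on each ID8G array and at 1.07 and 1.19 in GO2 cells, a difference of -0.49 ± 0.06 (limma adjusted p = 0.00896). Robo2 was at -2.84 and -2.62 in ID8G cells and at -3.39 and -3.27 in GO2 cells, a difference of -0.60 ± 0.10 (limma adjusted p = 0.0164). A second probe of each was well above background on no array. The 2 Slits called higher and the 2 Robo genes called lower kept their calls under the other settings run, 1 value per gene included, except for all 4 under the methods' t-test and for Slit2, Slit3 and Robo4 when all 4 arrays had to be well above background, which removed these 3 from the test. Normexp background correction shrank the differences, to 3.01 for Slit3, 2.27 for Slit2 and -1.46 for Robo4.

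**Figure D2:**
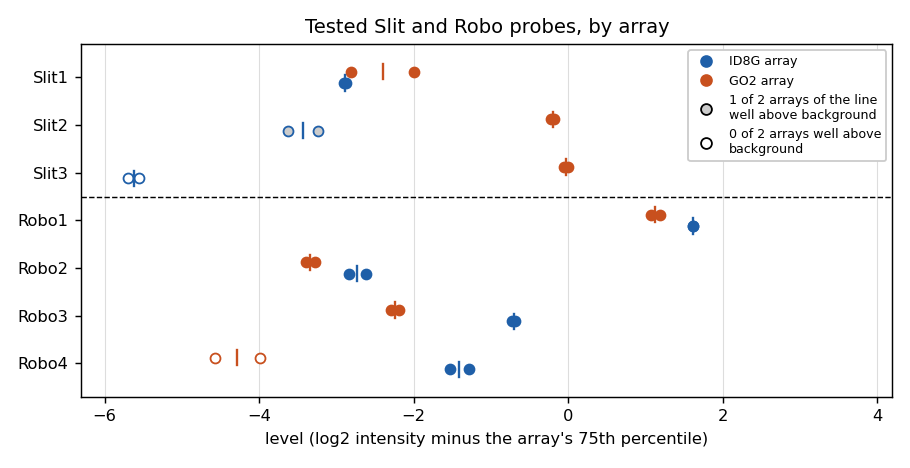
Level of each tested Slit and Robo probe on the 4 arrays (horizontal axis, log2 level), with a short bar at the mean of each line's 2 arrays. Open points mark a line with neither array well above background and gray points a line with 1 of 2. Rows are different probes and are read one by one, and the GO2 arrays lie to the right in the 3 Slit rows and to the left in the 4 Robo rows.

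The promoters of the 4 called Slit and Robo genes are shown because the called Slit genes and the called Robo genes stood on opposite sides of the comparison. Each is 300 bases around the RefSeq start of the gene, 5′ to 3′ on the strand of the gene, in build GRCm38.p6. Capitals mark the GC box, GGGCGG, on either strand.
Slit2, chr5:47982905-47983204, plus strand: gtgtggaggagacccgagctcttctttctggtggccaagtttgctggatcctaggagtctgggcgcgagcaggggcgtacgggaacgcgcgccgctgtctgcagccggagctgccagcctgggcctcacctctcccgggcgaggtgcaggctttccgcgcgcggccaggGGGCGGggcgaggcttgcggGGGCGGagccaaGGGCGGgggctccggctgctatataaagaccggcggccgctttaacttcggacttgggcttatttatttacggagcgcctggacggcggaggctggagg
Slit3, chr11:35121206-35121505, plus strand: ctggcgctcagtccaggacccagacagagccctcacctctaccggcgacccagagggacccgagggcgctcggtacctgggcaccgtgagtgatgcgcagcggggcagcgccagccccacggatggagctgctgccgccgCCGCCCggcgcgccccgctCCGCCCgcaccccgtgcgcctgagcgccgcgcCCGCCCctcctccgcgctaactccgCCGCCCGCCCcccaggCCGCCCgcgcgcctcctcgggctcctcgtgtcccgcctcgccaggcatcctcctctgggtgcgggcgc
Robo3, chr9:37433126-37433425, minus strand: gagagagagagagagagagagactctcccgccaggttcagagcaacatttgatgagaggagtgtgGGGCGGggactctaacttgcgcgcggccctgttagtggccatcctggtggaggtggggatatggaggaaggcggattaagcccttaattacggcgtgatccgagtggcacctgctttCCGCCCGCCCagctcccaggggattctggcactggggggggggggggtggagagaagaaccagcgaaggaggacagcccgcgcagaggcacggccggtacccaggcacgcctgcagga
Robo4, chr9:37401722-37402021, plus strand: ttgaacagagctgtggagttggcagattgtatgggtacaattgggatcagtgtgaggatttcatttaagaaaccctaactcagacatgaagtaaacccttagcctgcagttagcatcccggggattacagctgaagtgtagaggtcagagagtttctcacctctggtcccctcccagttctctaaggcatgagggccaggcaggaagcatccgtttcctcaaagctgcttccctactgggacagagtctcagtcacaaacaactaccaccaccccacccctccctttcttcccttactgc
The GC box, a motif bound by Sp1 and related factors, occurs 3 times in the Slit2 window, 6 times in that of Slit3 and 3 times in that of Robo3, counting overlaps, and 0 times in that of Robo4. It is present in 35.7% of 32851 RefSeq promoter windows of the same length. The dinucleotide CG occurs 30 times in the Slit2 window, 41 times in that of Slit3, 17 times in that of Robo3 and 2 times in that of Robo4, where the median window has 7. The E-box, CANNTG, occurs 2 times each in the Robo3 and Robo4 windows and 0 times in the Slit windows, against 72.3% of windows with at least 1. The Slit2 window holds TATAAA once, a sequence found on either strand in 13.6% of windows. The AP-1 motif TGANTCA and the TEAD motif GGAATG, found in 7.81% and 14.7% of windows, were in none of these 4. These are matches of letters and say nothing of which factors bind. In the RefSeq order, Robo4 and Robo3 are next to each other on chromosome 9 with 0 genes between them, on opposite strands.

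Among the semaphorins, 3 of 6 tested class 3 genes were called higher and 0 lower, and 0 of 10 tested genes of classes 4 to 7 were called higher and 4 lower. Sema3b, a secreted semaphorin, had the largest difference of them. It was at -3.08 and -2.89 in ID8G cells and at -0.05 and 0.13 in GO2 cells, 8.12-fold higher (difference 3.02 ± 0.11, limma adjusted p = 0.000414). Sema3d was well above background in both lines. Its levels were 2.05 and 2.09 in ID8G cells and 3.93 and 3.96 in GO2 cells, 3.66-fold higher (difference 1.87 ± 0.05, limma adjusted p = 0.000289). Sema3e, whose protein is the known ligand of plexin D1, was at -0.67 and -0.64 in ID8G cells and at 0.88 and 0.93 in GO2 cells. It was 2.95-fold higher (difference 1.56 ± 0.05, limma adjusted p = 0.000416). For these 3 genes the arrays of a line lay close together and the lines did not overlap.

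The remaining class 3 semaphorins differed by less than 2-fold. Sema3c was at 4.11 and 4.15 in ID8G cells and at 4.87 and 4.73 in GO2 cells, a difference of 0.67. Both Sema3a probes were above ID8G on both GO2 arrays, by 0.54 and 0.50, with limma adjusted p values of 0.00798 and 0.00795. Sema3a protein is the classical collapsing factor of growth cones and needs neuropilin-1. Sema3f, the ligand of neuropilin-2, went the other way by -0.18 on its brighter probe and -0.54 on the other. Sema3g was well above background on no array. Sema3d, Sema3a, Sema3e and Sema3c follow one another in this order along chromosome 5. Between Sema3d and Sema3a the RefSeq annotation has 5 genes, none with a tested probe. The next interval, from Sema3a to Sema3e, holds 9 genes, and the one from Sema3e to Sema3c holds 34.

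Of the membrane-bound semaphorins, Sema7a, which is linked to the outer membrane by a lipid anchor, was at 1.36 and 1.48 in ID8G cells and at -0.08 on each GO2 array. It was 2.83-fold lower (difference -1.50 ± 0.06, limma adjusted p = 0.000596). Sema5a has 2 tested probes and both were called. The brighter was at 2.70 and 2.72 in ID8G cells and at 1.29 and 1.36 in GO2 cells, 2.61-fold lower (difference -1.38 ± 0.06, limma adjusted p = 0.000518). The dimmer was at -2.70 and -2.64 in ID8G cells and at -3.62 and -4.07 in GO2 cells, where neither array was well above background, and it was at least 2.09-fold lower. Its call was lost without GO2 replicate 2, where the difference was -0.95, with normexp background correction, at -0.48, with no filter on dim probes (limma adjusted p = 0.0626) and with limma treat. Sema4a, known from contacts between immune cells, was at 2.55 and 2.61 in ID8G cells and at 1.39 and 1.36 in GO2 cells, 2.30-fold lower (difference -1.20 ± 0.05, limma adjusted p = 0.000659). Tested with limma treat for a difference beyond 2-fold, Sema4a had an adjusted p of 0.191 and was not called.

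Sema6a, a transmembrane ligand of plexins A2 and A4, was at -2.65 and -2.75 in ID8G cells and at -4.44 and -4.13 in GO2 cells. Neither GO2 array was well above background, so it was at least 2.16-fold lower (limma adjusted p = 0.00255), and its other probe was well above background on no array. With normexp background correction the Sema6a difference was -0.62 and the call was lost, as it was with limma treat (adjusted p = 0.0943). The other class 6 genes had no call. Sema6b differed by 0.12 and Sema6d by 0.04, and the 2 tested probes of Sema6c differed by 0.04 and -0.36. With spike-in scaling the signs of Sema6b, Sema6d and the first Sema6c probe turned, to between -0.17 and -0.09. Sema4g came close to a call at -0.92, with levels of 1.73 and 1.81 in ID8G cells and 0.83 and 0.87 in GO2 cells. The tested Sema5b probes disagreed, at 0.27 on the brighter and -0.74 on the other. Sema4c, with 3 tested probes between -0.08 and 0.16, had no call.

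**Figure D3:**
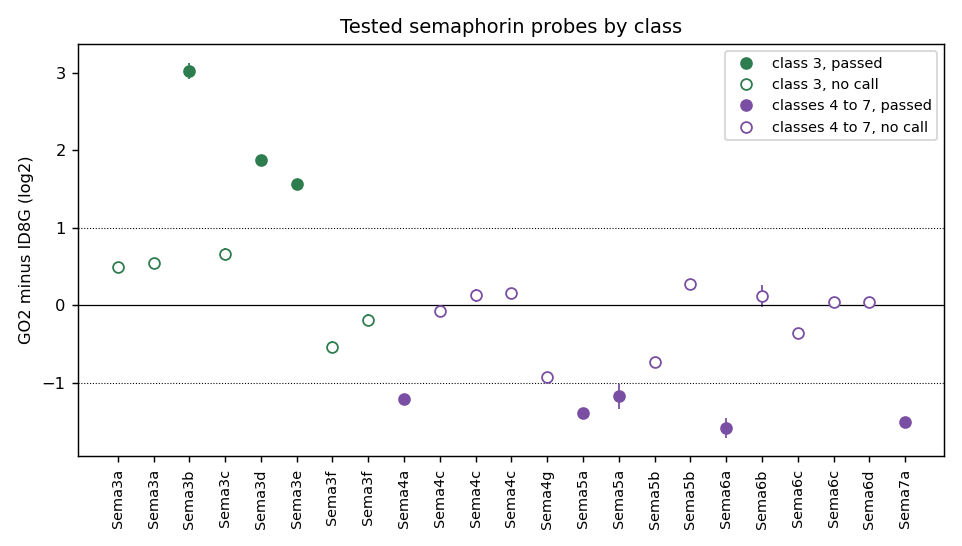
Difference between GO2 and ID8G cells (vertical axis, log2, with its limma standard error) for each tested semaphorin probe, in the order of the gene names. Green points are class 3 genes and purple points classes 4 to 7, filled where the probe passed the test, and dotted lines mark 2-fold. The 3 filled green points lie between 1.56 and 3.02 and the 5 filled purple points between -1.58 and -1.17, fitted values that for Sema6a and the dimmer Sema5a probe exceed the bound.

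Of the receptors for semaphorins, plexins carry the signal into the cell through a domain that acts on small GTPases. Plxna2 was the only one of 8 tested plexin genes with a call. Its brighter probe was at -3.20 and -2.91 in ID8G cells and at -1.39 and -1.40 in GO2 cells, 3.16-fold higher (difference 1.66 ± 0.11, limma adjusted p = 0.00167). The other Plxna2 probe was at -3.53 and -3.45 in ID8G cells and at -2.78 and -2.42 in GO2 cells, a difference of 0.89 that missed the minimum and reached it, at 1.07, without GO2 replicate 1. With normexp background correction the brighter probe was at 0.99 and lost its call.

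All 6 tested probes of the 4 class A plexins were above ID8G on both GO2 arrays, as were 33.9% of all tested probes. With spike-in scaling Plxna4 turned to -0.08. Plxna1 differed by 0.22, Plxna3 by 0.38 and 0.37, and Plxna4 by 0.13. The class B plexins, receptors of class 4 semaphorins, had no call. Plxnb1 was at 1.18 on each ID8G array and at 0.49 and 0.64 in GO2 cells (difference -0.62 ± 0.07, limma adjusted p = 0.00702). Plxnb2 was at 5.29 and 5.30 in ID8G cells and at 4.81 and 4.99 in GO2 cells (-0.39 ± 0.08, limma adjusted p = 0.0282), and Plxnb3 differed by 0.34. Plxnd1, the receptor of Sema3e, differed by -0.34 on its brighter probe and -0.10 on the other. The receptor of Sema7a, Plxnc1, was well above background on no array with either of its 2 probes.

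Neuropilins, which bind class 3 semaphorins and also VEGF, had 6 tested probes, all measured on each of the 4 arrays, and none was called. The brightest of 3 Nrp1 probes was at 3.22 and 3.13 in ID8G cells and at 3.37 and 3.29 in GO2 cells. The 3 Nrp1 differences lay between 0.15 and 0.27, and the smallest turned to -0.06 with spike-in scaling. For Nrp2 the brightest probe was at 5.17 on each ID8G array and 5.40 on each GO2 array, a difference of 0.23, and the other probes differed by 0.04 and -0.25. The 6 neuropilin probes together had differences from -0.25 to 0.27, with 4 above, 1 below and 1 overlapping. Of all tested probes 33.9% lay above and 39.7% below.

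Ephrins bind Eph receptors on neighboring cells, the A ephrins through EphA receptors for the most part and the B ephrins through EphB receptors. Efna5 was the single one of 8 tested ephrin genes with a call, and all 3 of its probes were called higher. On the brightest, the levels were 2.44 and 2.47 in ID8G cells and 3.76 and 3.78 in GO2 cells, 2.48-fold higher (difference 1.31 ± 0.05, limma adjusted p = 0.000493). Another probe went from 1.65 and 1.66 to 2.93 and 2.87, 2.37-fold higher. The dimmest, with 1 of 2 ID8G arrays well above background, went from -3.39 and -3.44 to -2.17 and -2.30, 2.26-fold higher. This dimmest probe was not called with normexp background correction (0.62) or spike-in scaling (0.97). With limma treat only the brightest Efna5 probe was called.

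Efna1, the ephrin that best activates EphA2, was at -2.69 and -2.78 in ID8G cells and at -1.68 and -1.85 in GO2 cells. Its difference of 0.97 ± 0.08 (limma adjusted p = 0.00319) fell just short of 2-fold and exceeded it without ID8G replicate 1 (1.02) and without GO2 replicate 2 (1.06). Efnb1 was at 3.93 and 3.96 in ID8G cells and at 4.75 and 4.78 in GO2 cells, a difference of 0.82 with no overlap. Efna2 differed by 0.35, Efnb2 by 0.26, Efna3 by -0.12, Efna4 by -0.13 and Efnb3 by -0.65. Just inside the 2-fold minimum lay the dimmest Efna5 probe at 1.18, and just outside lay Efna1.

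Of the 14 Eph receptor genes on the array 8 were tested, and Epha1 and Ephb2 were called higher. Epha1 was at -3.90 and -3.74 in ID8G cells, where neither array was well above background, and at -1.63 and -1.65 in GO2 cells. It was at least 3.98-fold higher (limma adjusted p = 0.000412), and its difference was 1.19 with normexp background correction. The probes of Ephb2 disagreed. The called probe, on the transcript NM_001290753, was at -4.00 and -3.70 in ID8G cells and at -1.24 and -0.88 in GO2 cells, at least 5.87-fold higher (limma adjusted p = 0.00134). The other, on the transcript NM_010142, was at -1.48 and -1.51 in ID8G cells and at -1.57 and -1.47 in GO2 cells, a difference of -0.02 ± 0.06. The arrays of the 2 lines overlapped on that probe, which was the brighter one and measured on every array. With normexp background correction the called probe differed by 1.57.

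Epha2, often studied in ovarian cancer, was well above background on all arrays at 3.53 and 3.68 in ID8G cells and at 3.75 and 3.83 in GO2 cells. It was not called (difference 0.19 ± 0.08, limma adjusted p = 0.133), and with spike-in scaling the difference was -0.02. Epha4, which can bind ephrins of both classes, was at 1.09 and 1.16 in ID8G cells and at 0.56 and 0.51 in GO2 cells, a difference of -0.59. The 3 tested Epha7 probes disagreed in sign, at -0.44, -0.50 and 0.57. Ephb3 differed by 0.35. Ephb6, which lacks an active kinase, had a brighter probe at 2.80 and 2.83 in ID8G cells and at 1.83 and 1.88 in GO2 cells. That difference of -0.96 was not called, and the other Ephb6 probe differed by 0.10.

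Ephb4, the receptor of Efnb2, was read differently by the arrays of 1 line. It was at -3.45 and -5.96 on the ID8G arrays, neither well above background, and at -3.25 and -2.85 on the GO2 arrays. At least 1.50-fold higher in GO2 cells by the bound, it had a limma adjusted p of 0.217 and was called without ID8G replicate 1, where the difference was 2.91. Epha3, Epha5, Epha6, Epha8, Epha10 and Ephb1 were not tested. One Epha3 probe was at -5.70 and -6.00 in ID8G cells and at -3.69 and -3.64 in GO2 cells without reaching well above background on any array. The other Epha3 probe had a difference of 0.00.

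Netrins are secreted proteins related to laminins, and the gene of the founding member, Ntn1, was well above background on no array. Ntn5 was at -3.04 and -2.91 in ID8G cells and at -5.84 and -5.95 in GO2 cells, where it was not well above background. It was called lower (limma adjusted p = 0.000269), but the bound was 1.79-fold only, which is under the minimum, the difference with normexp background correction was -1.02, and its other probe was well above background on no array. Ntn3 was at -1.78 and -2.74 in ID8G cells and at -2.47 and -2.21 in GO2 cells and overlapped (difference -0.08 ± 0.35). Ntn4 was not tested.

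Among the Unc5 receptors, Unc5c was at -2.84 and -2.66 in ID8G cells and at -5.45 and -5.31 in GO2 cells, not well above background there. The bound was at least 2.09-fold lower (limma adjusted p = 0.000428), and the call was lost with normexp background correction (-0.88). The second Unc5c probe was well above background on no array. Unc5b had probes at 4.40 and 4.38 and at 3.59 and 3.62 in ID8G cells and at 4.18 and 4.25 and at 3.47 and 3.38 in GO2 cells. Its differences of -0.17 and -0.19 had limma adjusted p values of 0.0796 and 0.0783. Unc5a and Unc5d were well above background on no array.

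**Figure D4:**
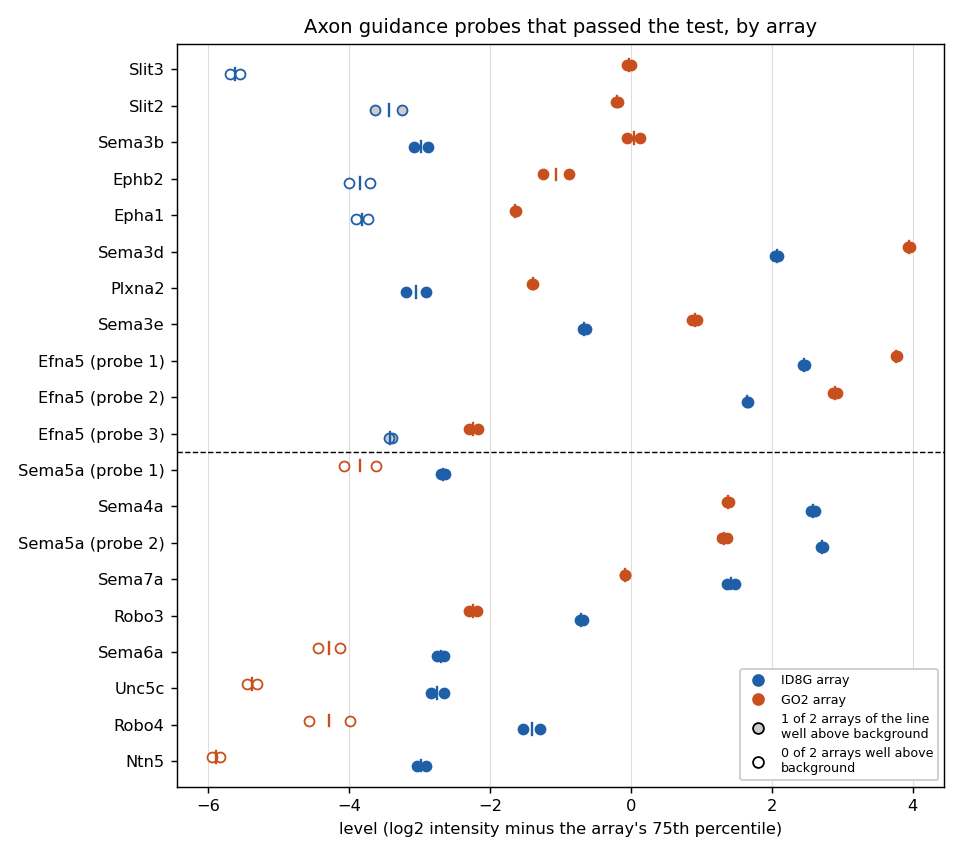
Level of the 20 called axon guidance probes on each of the 4 arrays (horizontal axis, log2 level), ordered by the fitted difference, with a short bar at the mean of each line. Probes of one gene are numbered from the highest difference down. Above the dashed line the GO2 arrays lie to the right of the ID8G arrays in all 11 rows, below it to the left in all 9, and open points mark a line with neither array well above background.

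The 15 genes with no tested probe were Epha3, Epha5, Epha6, Epha8, Epha10, Ephb1, Ntn1, Ntn4, Plxna4os1, Plxnc1, Sema3g, Sema4d, Sema4f, Unc5a and Unc5d. Sema4d stood at -2.40 on GO2 replicate 2 and at -6.08 on GO2 replicate 1, so its signal came from 1 array. Of all 111 probes, 59 passed the background mark on every array and 32 on none. Counted by the adjusted p alone, 23 of 74 probes (31.1%) were above ID8G and 23 below, where 17.0% and 18.9% of all tested probes were. Of these 46 probes 26 differed by less than 2-fold.

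Other genes of the pathway were taken from lists that hold none of the families above. Of 32 further ligands and co-receptors 19 were tested, 5 were higher and 1 lower, and their median difference was 0.09. Rgma, a membrane-anchored repulsive cue that binds neogenin, was at -4.98 and -5.13 in ID8G cells, not well above background, and at 0.04 and 0.12 in GO2 cells, at least 13.5-fold higher. The brighter Rgma probe differed by -0.14 and was not called, so the probes of this gene disagreed. Flrt3, an adhesion protein that binds Unc5 receptors, was 3.79-fold higher and the proteoglycan Sdc2 3.51-fold. Gpc1, a heparan sulfate proteoglycan that can bind Slits, was 2.03-fold higher, and Met, which can associate with class B plexins, was higher on 2 probes by 2.43-fold and 2.45-fold. Vegfc was 2.24-fold lower on its brighter probe, and the other, at -0.77, was not called. Neo1, the gene of neogenin, differed by 0.48 and was not called.

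Of 41 genes for proteins that act inside the cell below these receptors 36 were tested, 3 were higher and 1 lower, with a median of 0.17. Mical1, an enzyme that acts on actin below plexins, was at -3.88 and -3.81 in ID8G cells, not well above background, and at 1.16 on each GO2 array, at least 28.4-fold higher. The other 2 Mical1 probes, well above background in both lines, differed by 0.19 and -0.22 and were not called, so the probes disagreed here too. Srgap3, a Slit-Robo GTPase activating protein, was at least 2.69-fold higher from an ID8G level not well above background. Dpysl3, which encodes a collapsin response mediator protein, was higher on 3 probes by between 3.52-fold and 3.63-fold. Ngef, the Eph receptor exchange factor also called ephexin, was 3.33-fold lower. These counts stand beside 6.44% of all tested gene symbols called higher and 4.33% called lower.

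Markers of cell types were read on the same arrays. The first list is of mesothelium and of ovarian surface epithelium, from which, the paper states, the ID8 line arose. Of 10 markers of ovarian surface epithelium and mesothelium 9 were tested, with Upk3b 2.11-fold higher, Krt19 3.14-fold lower and Krt7 well above background on no array. Of 8 fibroblast markers 5 were tested and 4 were higher (Col3a1, Col6a3, Pdgfra and Pdgfrb), while Fap, Lum and Thy1 were well above background on no array. Col3a1 was 18.4-fold higher, Pdgfra 13.0-fold, Col6a3 at least 14.5-fold and Pdgfrb at least 2.42-fold, and the median difference of the 5 was 3.70. The other tested gene, Dcn, was at 6.07 and 6.01 in ID8G cells and at 5.41 and 5.42 in GO2 cells and was not called. The log2 of the summed level of the fibroblast list, a sum over probes of unlike brightness, was 6.04 to 6.11 on the ID8G arrays and 6.04 to 6.09 on the GO2 arrays. On the ID8G arrays nearly all of this sum was the Dcn probe, so it says little of the other markers. For the ovarian surface and mesothelial list the median difference was -0.34. The log2 of its summed level, weighted in the same way to the brightest probes, was 9.38 to 9.40 on the ID8G arrays and 8.59 to 8.61 on the GO2 arrays. Of 8 endothelial markers 1 was tested and 0 were called, and 7, among them Cdh5, Kdr and Tek, were well above background on no array. The leukocyte markers Ptprc and Adgre1 were well above background on no array, and 0 of 4 tested leukocyte and macrophage markers were called. In the adipocyte list Fabp4 was called lower on both its probes, neither well above background in GO2 cells. The bounds were 6.28-fold and 1.79-fold, the second under the minimum. Lep, the other tested gene of that list, differed by -0.04 and was not called, and Adipoq and Plin1 were well above background on no array. Of the neuron and glia list Tubb3 was 2.23-fold higher, and Rbfox3, Sox10 and Syt1 were well above background on no array. The part of fibroblast transcripts in the axon guidance differences was not tested.

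The 75th percentile of intensity was 627 to 675, and 27502 to 28841 probes were well above background per array. The arrays of each line lay side by side on the slide, so position and line cannot be told apart. The number of arrays limits the precision, and for 2 arrays against 2 the smallest two-sided p of an exact permutation test is 0.333. The limma p values draw on a variance shared across all tested probes. With the methods' t-test and Benjamini-Hochberg adjustment, 0 of these probes were called, and at an unadjusted p under 0.05 with at least 2-fold it called 10 higher and 8 lower.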

How the data were processed

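Total RNA of ID8G and GO2 cells was hybridized to 4 single-color Agilent arrays. The authors deposited linear spot intensity values, as processed by Feature Extraction 11.5.1.1 with background subtraction and no normalization between arrays. They also deposited a log2 value table, scaled by array (75th percentile) and centered by probe (median), used here as an alternative only. Of the per-sample columns 0 were left unused.

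Outlier spots (132 to 195 per array) were left out, spots of a probe were averaged as log2 intensity, and the array's 75th percentile was subtracted. No spot was saturated. Probes were named by RefSeq accession (32994 of 56605, 58.3%). The fit used limma 3.58.1 in R 4.3.3 with a single term for cell line, and figures were drawn with matplotlib 3.10.9. The limma fit, the t-test and the call rule were tested on simulated levels, and the steps before them were not. Every gene with a called probe was named with its other probes and with the receptors or ligands of its class, other genes by counts and ranges, and in the further lists the called genes with at most 3 more. The members and lists were chosen with earlier results of these data known.

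Alternatives were normexp (offset 50), quantile, median and spike-in scaling, other filters, a floor, an intensity trend, limma treat, the methods' t-test, a replicate block, the deposited table, outlier spots kept, 1 value per gene, no minimum difference and each array left out.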

Additional observations from a re-analysis of the deposited data

How the results depend on the processing

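The counts of 11 probes higher and 9 lower, and of 9 genes higher and 8 lower, moved with the test, the background filter and the minimum difference. The methods' t-test with adjustment called 0 of these probes and genes in either direction, and 0 probes higher and 3 lower over all tested. At an unadjusted p under 0.05 with at least 2-fold, it gave 10 of these probes higher and 8 lower, and limma 11 and 9. When all 4 arrays had to be well above background, there were 6 probes higher and 4 lower, in 5 and 4 genes, since fewer probes were tested. With no minimum difference, 23 probes were higher and 23 lower, in 19 and 21 genes. Normexp background correction gave 9 and 6 probes, limma treat 9 and 6 (without Sema4a, Sema6a, the dimmer Sema5a probe and 2 Efna5 probes), and spike-in scaling 10 and 11, where the median of all tested probes went from -0.02 to -0.23 and Ephb6 and Sema4g were newly called lower. Over all probes tested under each setting, the main fit called 1277 higher and 947 lower. These counts were 666 and 606 with all 4 arrays well above background, and 818 and 517 with normexp background correction. They were 748 and 440 with limma treat and 1102 and 1434 with spike-in scaling. Limma at an unadjusted p under 0.05 with at least 2-fold gave 1320 and 986. The floor removed the call of Ntn5 (-0.84). Without 1 array in turn, the dimmer Sema5a probe went to -0.95 without GO2 replicate 2. Efna1 went to 1.02 without ID8G replicate 1 and to 1.06 without GO2 replicate 2, and Ephb4 to 2.91 without ID8G replicate 1. In these fits the remaining array of a line is taken to vary as the other line does.

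With the replicate number as a replicate block, 11 of these probes were higher and 9 lower, and over all tested probes 1251 and 936. GO2 and ID8G differences between replicates correlated at 0.0273 across tested probes, so no large shared replicate effect was seen. With 1 such difference per line, this cannot decide whether replicate numbers mark pairs. The slide as a block was not run because there is 1 slide. Of 1317 comparisons of single probes with an alternative, 1251 stayed on the same side of the threshold, 34 lost the call, 32 gained one, and 0 called differences changed sign. In the main fit 54 of the 74 tested probes had no call, so much of this agreement is of probes that stayed uncalled. The 10 called probes that the filter on all 4 arrays removed are not among the 34. The causes of the changes were not tested. Signal over background is a limit for 8 of the 17 called genes, which rest on a bound or on 1 of 2 arrays in a line.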
